A study of Petromyzon marinus with 21 samples.

Results

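Day 3 embryos of the sea lamprey were compared with day 1 embryos on a panel of 49 transcripts. By the lane names both ages were read in 1 run of the instrument, and no wider span of age was read within one run. The comparison used 6 of the 21 samples of the series, 3 of age D1 (1 day after fertilization) and 3 of age D3 (3 days), chosen by the age and replicate number in the lane names. All were whole embryos of Petromyzon marinus incubated at 18 °C in 10% Holfretter's solution (so spelled in the labels), a dilute salt medium, with no treatment or genetic change named at either age. The samples of an age are described as biological triplicates, with the number of embryos in each not stated. The other samples are embryos of D2, D2.5, D4 and D5 and 1 adult testes RNA read in 3 technical lanes. RNA was counted on the NanoString nCounter, where a barcoded probe hybridises to each transcript and the barcodes are counted without amplification.

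The sea lamprey is a jawless vertebrate whose early embryo eliminates a portion of its germline DNA from the cells that will form the body, so that many germline genes persist in the germ cells alone. Early cleavage in vertebrates runs largely on RNA laid down by the mother. Transcription from the embryo's own genome takes over around the blastula stages, when maternal RNA is also degraded. Whole-embryo RNA cannot tell a change in the number of cells of one kind from a change in RNA per cell.

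The panel held 43 target probes, of which 19 carried a gene annotation and 24 did not, and 6 probes of a reference class (RPS9, EF1A_A, EF1A_B, HCFC-1, Piwi-1 and Piwi-2). A lane's background was the mean plus 2 SD of its 8 negative control probes. This threshold lay between 13.2 and 17.9 raw counts at D1 and between 10.3 and 17.8 at D3. Counts were scaled within each lane by EF1A_A and HCFC-1, the reference probes above background in every embryo lane, and are called scaled counts below. Of the 49 transcripts, 41 were tested: 38 target probes, RPS9, Piwi-1 and Piwi-2. Each probe is counted as 1 transcript here and below. Some probes share an annotation or the first part of their name, so a gene can be counted more than once. The 5 target probes left out (comp243002, comp262153, comp282841, the SYCP1 probe comp288706 and myosin-7B, comp292635_13) were below background in all 6 lanes. Total target counts were 1675, 504 and 2384 in D1 replicates 1 to 3, and 1545, 4678 and 15415 in D3 replicates 1 to 3. D1 replicate 2 and D3 replicate 1 also had the fewest EF1A_A counts of their age, 181 and 180, and their values carry the largest counting error.

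Most target transcripts were near or below background at D1 and measurable at D3. Of the 43 target probes, replicates 1, 2 and 3 had 6, 3 and 7 above background at D1 and 25, 37 and 38 at D3. The ages did not overlap in this number. Probes that exceeded background in all 3 lanes of an age numbered 3 at D1 and 25 at D3. Of those 25, 21 had been below background in every D1 lane. The unannotated comp292169 and aspartate aminotransferase (comp293586) were the 2 target probes that cleared background in each of the 6 lanes.

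A panel level was taken as the 38 tested target probes' average log2(scaled count + 1). It was 2.81, 3.03 and 2.62 in the D1 lanes and 5.37, 5.00 and 7.91 in the D3 lanes. Every D3 lane lay above every D1 lane, and D3 replicate 3 stood well above the other D3 lanes. The means were 2.82 ± 0.21 at D1 and 6.09 ± 1.58 at D3 (SD, n = 3 each), a difference of 3.28 on the log2 scale. At the ages between, read in the same run, the means were 3.93 ± 0.87 at D2 and 4.74 ± 1.66 at D2.5. Of the 38 probes, 31 were above background in no D1 lane and entered the 38 through their counts at later ages, which favours a rise. Over all 43 target probes the difference was 2.95. Over the 38 and without D3 replicate 3 it was 2.37. Scaled by TMM it was 0.095, and by the size factors of DESeq2 −0.23. Both are computed from the tested probes and remove a change that most of them share.

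**Figure D1:**
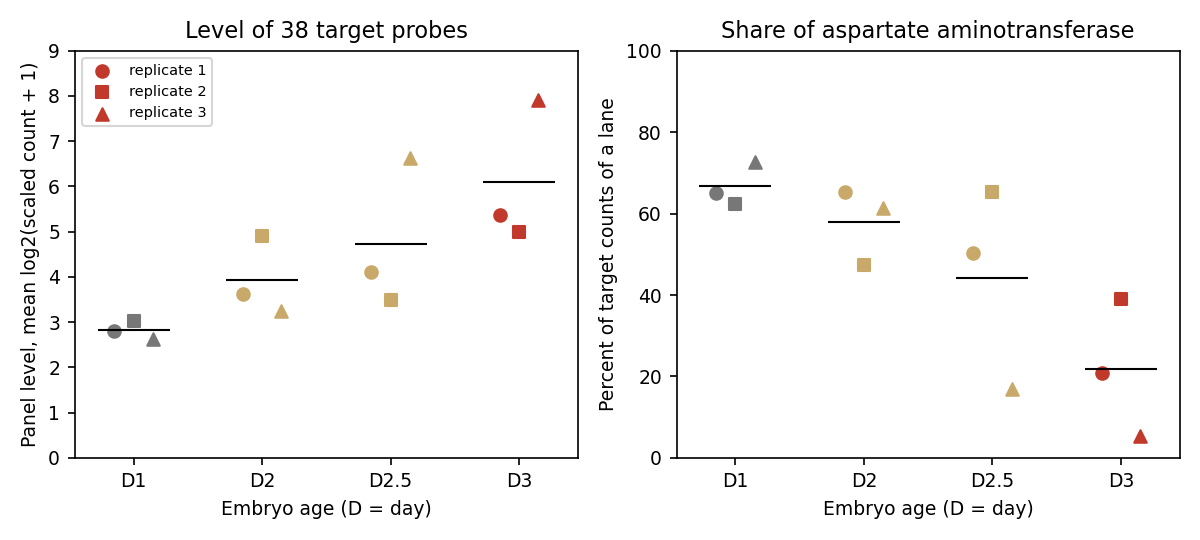
Left, level of the 38 tested target probes (mean of log2(scaled count + 1)) in each of the 12 lanes of the first run by age; right, percent of a lane's target counts that came from aspartate aminotransferase. Points are lanes (circle, square and triangle for replicates 1, 2 and 3) and bars are means of 3. The D3 lanes lie at 5.00 to 7.91, above the D1 lanes at 2.62 to 3.03, and the aminotransferase share falls from 62.3% or more at D1 to 39.1% or less at D3.

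Of the 41 tested transcripts, 30 rose from D1 to D3 and 3 fell (edgeR quasi-likelihood test, adjusted p under 0.05). That is 73.2% of the tested transcripts upward, 7.32% downward and 80.5% in either direction. The risers were RPS9 and 29 target probes, 10 of the 17 annotated ones tested and 19 of the 21 without annotation. The fallers were the SYCP1 probe comp292635_9, Piwi-1 and Piwi-2. The median log2 fold change over the 41 was 4.26. Of the 29 target probes that rose, 28 were below background in every D1 lane. Their fold changes are therefore taken against background-level counts. These 28 entered the 41 through their counts at later ages, which favours a rise. The median was 8.21 after subtracting the negative controls' mean and 2.08 with limma at a pseudocount of 10. With no filter on low counts, 29 of 47 transcripts rose and 1 fell. In 29 transcripts (70.7%) every D3 lane lay above every D1 lane in scaled counts, and in 2 (4.88%) every D3 lane lay below. Some of these separations are between background-level counts. Of the 29 target probes that rose, 20 were above background in all 3 D3 lanes. The unannotated comp30676 had 3 raw counts in D3 replicate 1 against 3, 2 and 1 in the D1 lanes. The background of D1 replicate 2 was 38.2 scaled counts, above the D3 values of some of these probes.

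D3 replicate 3 carried much of this change. It had the highest scaled count of the D3 lanes for 37 of the 38 target probes. Over the 29 target probes that rose, it exceeded the mean of the other D3 lanes by a factor of 4.75 to 15.6, with a median of 7.48. Without it 16 transcripts rose and 2 fell (edgeR), with a median log2 fold change of 2.52, and all 16 were among the 30. Those 16 are also the risers that kept their call without any 1 of the 6 lanes.

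**Figure D2:**
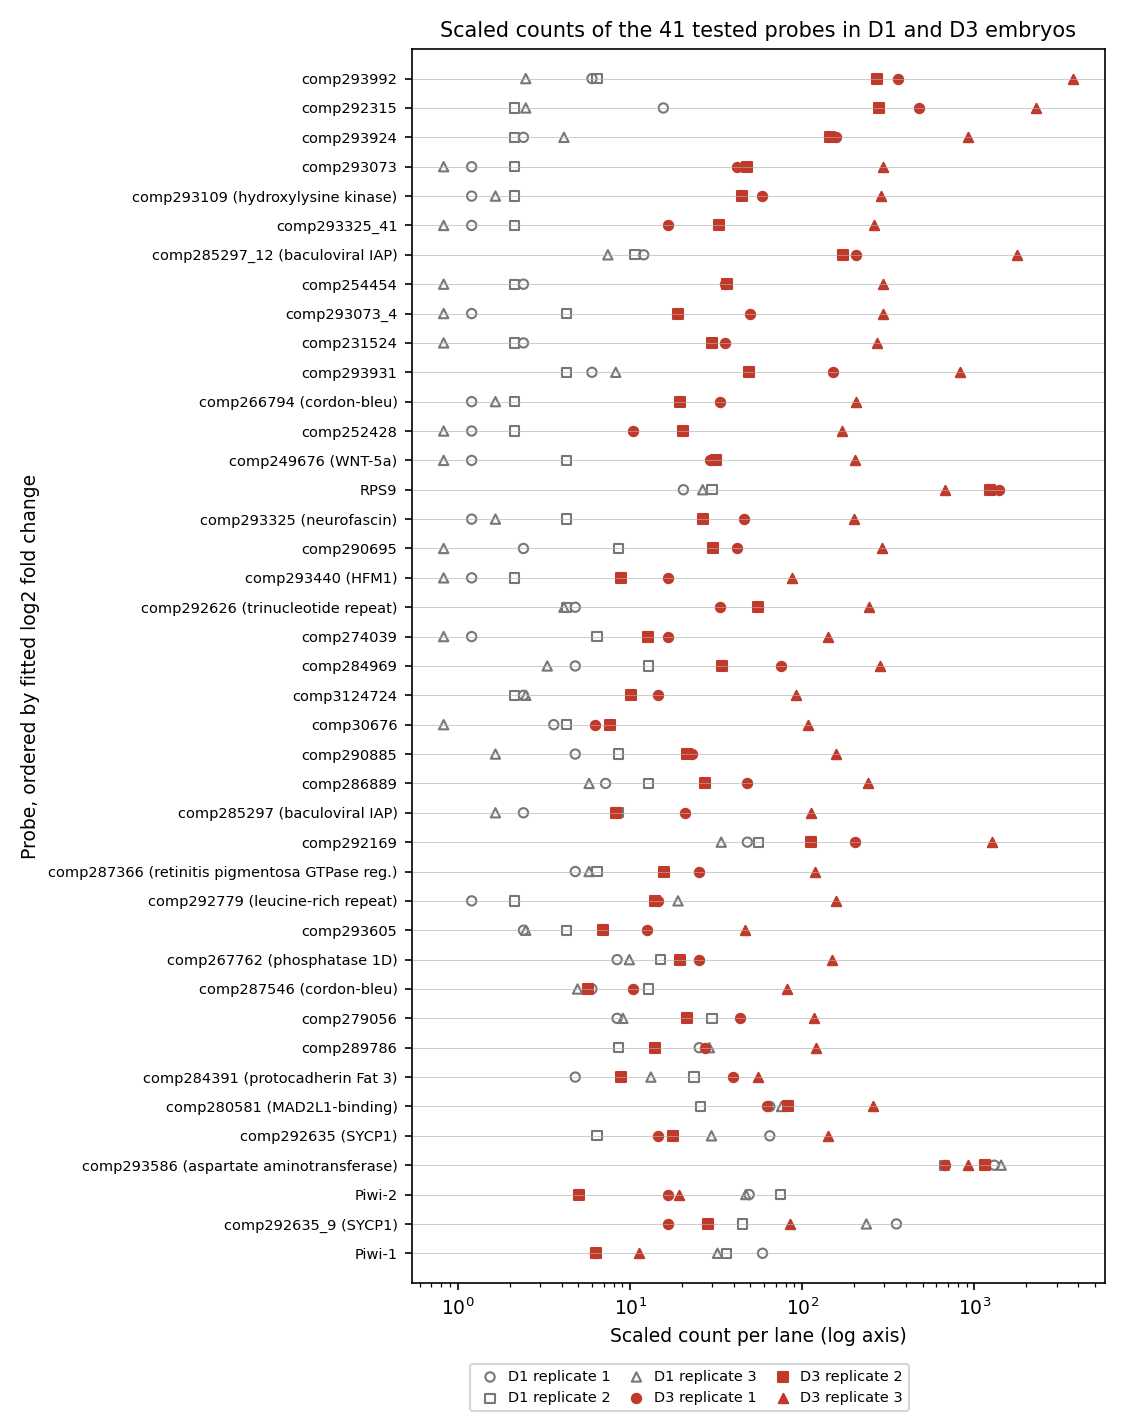
Scaled counts (log axis) of the 41 tested transcripts in the 3 D1 lanes (open grey) and 3 D3 lanes (filled red), 1 row per probe, with circle, square and triangle for replicates 1, 2 and 3, ordered by the fitted log2 fold change. At the top of the plot the ages are apart in every lane, with comp293992 at 2.47 to 6.41 at D1 and 272 to 3754 at D3. Piwi-1, at the bottom, runs the other way.

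Among the risers, 9 passed as rises under each of the 25 alternative settings that tested them, TMM and DESeq2's size factors included. They were comp293992, comp292315, comp293924, comp293073, comp254454, comp231524, comp293325_41, hydroxylysine kinase and the baculoviral IAP probe comp285297_12. The unannotated comp293992 had 5.99, 6.41 and 2.47 scaled counts in the D1 lanes and 359.7, 272 and 3754 in the D3 lanes. No D1 lane reached background and every D3 lane was well above it. Its D3 mean was at least 63.9-fold above the mean D1 background of 22.9 scaled counts, and its log2 fold change was 8.21 (SE 1.80, edgeR adjusted p = 0.00228). Such a bound concerns the D1 side only. Replicate 3 weighs most in the D3 mean, here and in the bounds of the rises below.

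The unannotated comp292315 was counted at 15.6, 2.14 and 2.47 in the D1 lanes and at 474, 277 and 2283 in the D3 lanes after scaling, at least 44.2-fold above the D1 background. Its log2 fold change was 7.18 (SE 1.69, edgeR adjusted p = 0.00258). For comp293924, also without annotation, the values were 2.40, 2.14 and 4.12 at D1 and 156, 145 and 919.6 at D3, at least 17.8-fold above background. In these transcripts D3 replicates 1 and 2 lay within a factor of 2 of each other, and replicate 3 stood far above both. comp293931 followed the same order of ages, with 5.99, 4.27 and 8.24 at D1 and 152, 49.3 and 824 at D3, at least 14.9-fold above background (edgeR adjusted p = 0.00631). Its call ended under TMM and under DESeq2 size factors, where the adjusted p was 0.1138 and 0.2738 (edgeR; 4.715e-05 to 0.2738 over all settings and tools, the lowest from DESeq2).

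Apoptosis inhibitors of the baculoviral IAP repeat family block caspases or act in cytosolic sensing in other vertebrates, and 2 of 2 probes with that annotation rose, where 73.2% of all tested transcripts did. For comp285297_12 the scaled counts were 11.99, 10.7 and 7.42 at D1 and 206, 173 and 1777 at D3, at least 31.4-fold above the D1 background. Every lane of D1 was below background and every lane of D3 above it. Its log2 fold change was 6.15 (SE 1.58, edgeR adjusted p = 0.00408). The other probe, comp285297, had 2.40, 8.54 and 1.65 at D1 and 20.8, 8.22 and 113 at D3 (log2 fold change 3.57, SE 1.46, edgeR adjusted p = 0.033). It was above background in no D1 lane and in 2 of 3 D3 lanes. Its D3 mean was at least 2.06-fold above the mean D1 background of 22.9, with D3 replicates 1 and 2 under that level. Its lanes overlapped between the ages, and the call was lost without D1 replicate 1, D1 replicate 3 or D3 replicate 3. Without D3 replicate 3 the edgeR adjusted p was 0.2799, and over all settings and tools the adjusted p ranged from 0.00571, with DESeq2, to 0.423.

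Enzymes of amino acid metabolism differed from one another. Hydroxylysine kinase (comp293109), which phosphorylates hydroxylysine released from collagen in mammals, had 1.20, 2.14 and 1.65 scaled counts at D1, against 58.2, 44.9 and 288 at D3. It rose at least 5.70-fold above the D1 background, with a log2 fold change of 6.23 (SE 1.48, edgeR adjusted p = 0.00258). Aspartate aminotransferase, which moves amino groups between aspartate and glutamate, had 1304, 671 and 1429.8 at D1 and 672, 1155 and 922 at D3. Its lanes overlapped and the means were 1135 ± 407 and 916 ± 242 (SD, n = 3), with a log2 fold change of −0.31 (SE 0.44, edgeR adjusted p = 0.502). It passed as a fall under TMM and under DESeq2 size factors (log2 fold change −3.51 and −3.82), where the median transcript is held near 0. Its share of all target counts in a lane needs no scaling: 65.0%, 62.3% and 72.8% at D1, and 20.9%, 39.1% and 5.31% at D3. A share also drops when other target counts rise, so it does not show a fall of this transcript. The share of comp293992 and comp292315 together was 1.07%, 0.794% and 0.252% at D1 and 26.0%, 18.6% and 34.8% at D3.

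WNT-5a (comp249676), a secreted ligand that guides cell movement and polarity in vertebrate embryos, had 1.20, 4.27 and 0.824 scaled counts at D1, against 29.1, 31.6 and 203 at D3. All D3 lanes were above background and all D1 lanes below it, so its D3 mean of 87.8 was at least 3.84-fold above the D1 background. Its log2 fold change was 5.48 (SE 1.62, edgeR adjusted p = 0.00655), with TMM and DESeq2 size factors giving 1.53 and 1.21, not past the threshold (edgeR adjusted p = 0.05876 and 0.1475, from 0.000161 to 0.1475 over all settings and tools, the lowest from DESeq2). Protocadherin Fat 3 (comp284391), a large cadherin of the cell surface, had 4.79, 23.5 and 13.2 at D1 and 39.5, 8.85 and 55.2 at D3. Its ages overlapped and it did not pass (log2 fold change 1.33, SE 1.02, edgeR adjusted p = 0.224). Neurofascin (comp293325), an adhesion protein of axons and glia in vertebrates, had 1.20, 4.27 and 1.65 at D1 and 45.7, 26.5 and 199 at D3. It rose with a log2 fold change of 5.29 (SE 1.46, edgeR adjusted p = 0.00511). No D1 lane reached background, and its D3 mean was at least 3.96-fold above the D1 background.

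Of the 2 cordon-bleu probes, whose product nucleates actin filaments in other vertebrates although the file calls it an apoptosis inhibitor, comp266794 rose and comp287546 did not pass. The first had 1.20, 2.14 and 1.65 scaled counts at D1, against 33.3, 19.6 and 206 at D3 (log2 fold change 5.63, SE 1.56, edgeR adjusted p = 0.00511). The second had 5.99, 12.8 and 4.94 at D1 and 10.4, 5.69 and 81.0 at D3, with only replicate 3 above background (log2 fold change 2.06, SE 1.10, edgeR adjusted p = 0.0853). Myosin-7B, a motor protein of striated muscle in other vertebrates, stayed at 4 raw counts or fewer in all 6 lanes.

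Of the chromatin and proliferation list 2 of 2 tested probes rose, where 73.2% of all tested transcripts did. Both were placed in the list after their annotation was read. The list's other member, HCFC-1, was used for scaling and not tested. The MAD2L1-binding protein (comp280581), whose annotation also names cell proliferation, was kept in the germ-line and meiosis list and did not pass (edgeR adjusted p = 0.169). The trinucleotide repeat-containing gene (comp292626), annotated as chromatin binding, had 4.79, 4.27 and 4.12 scaled counts at D1, against 33.3, 55.0 and 243 at D3 (log2 fold change 4.61, SE 1.28, edgeR adjusted p = 0.00511). All its D1 lanes were below background, and its D3 mean was at least 4.83-fold above the D1 background. TMM and DESeq2 size factors ended the call of this probe and of neurofascin, and DESeq2 size factors alone that of cordon-bleu comp266794. The protein phosphatase 1D probe (comp267762), whose mammalian counterpart dampens the response to DNA damage, had 8.39, 14.9 and 9.89 at D1 and 24.95, 19.6 and 149 at D3. It too was below background in every D1 lane, with a D3 mean at least 2.81-fold above the mean D1 background of 22.9. The probe exceeded that level only narrowly in D3 replicate 1 and lay under it in replicate 2. Its ages did not overlap, but the margin was narrow: the log2 fold change was 2.54 (SE 1.08, edgeR adjusted p = 0.0361). That call held in 10 of 25 alternative settings and was lost without D1 replicate 1, 2 or 3 or D3 replicate 3. With TMM and DESeq2 size factors the log2 fold change was −1.62 and −1.96.

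In the other annotated probes, the X-linked retinitis pigmentosa GTPase regulator (comp287366), a protein of the base of cilia in other vertebrates, had 4.79, 6.41 and 5.77 scaled counts at D1, against 24.95, 15.8 and 118 at D3. It rose with a log2 fold change of 3.21 (SE 1.35, edgeR adjusted p = 0.0361), a call that held in 14 of 25 alternatives and was likewise lost without any 1 of the D1 lanes or without D3 replicate 3. Every D1 lane was below background, and its D3 mean was at least 2.32-fold above the mean D1 background of 22.9. D3 replicate 1 was only narrowly above that level and replicate 2 was under it. A leucine-rich repeat-containing protein (comp292779) had 1.20, 2.14 and 19.0 at D1 and 14.6, 13.9 and 156 at D3 and did not pass (log2 fold change 2.96, SE 1.43, edgeR adjusted p = 0.0616). D1 replicate 3 was above both lower D3 lanes there.

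The germ-line and meiosis list was mixed. Of 7 members, 6 were tested, and 1 rose, 3 fell and 2 did not pass, where 73.2% of all tested transcripts rose and 7.32% fell. The list had a median log2 fold change of −0.65 against 4.26 over all tested transcripts. The riser was HFM1 (comp293440), a helicase of meiotic crossing over. It had 1.20, 2.14 and 0.824 scaled counts at D1, against 16.6, 8.85 and 86.7 at D3, where 2 of 3 lanes were above background. Its D3 mean of 37.4 was at least 1.63-fold above the D1 background (log2 fold change 4.74, SE 1.48, edgeR adjusted p = 0.00871), and the call ended in 5 of 24 alternatives, among them without D3 replicate 3. D3 replicates 1 and 2, at 16.6 and 8.85, lay under the mean D1 background of 22.9, and replicate 3 alone was above it. A MAD2L1-binding protein (comp280581), which helps to switch off the spindle checkpoint in mammals, had 64.7, 25.6 and 75.8 at D1 and 62.4, 82.2 and 257 at D3, and did not pass (edgeR adjusted p = 0.169).

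SYCP1, a protein that joins paired chromosomes in meiosis, had 3 probes, of which 1 fell, 1 did not pass and 1 was not tested. comp292635_9 had 352, 44.8 and 236 scaled counts at D1, against 16.6, 28.4 and 84.4 at D3, with D1 replicate 2 below D3 replicate 3. Its mean fell 4.89-fold, from 211 ± 155 to 43.2 ± 36.2 (SD, n = 3), with a log2 fold change of −2.28 (SE 0.98, edgeR adjusted p = 0.0371). The probe comp292635 had 64.7, 6.41 and 29.7 at D1 and 14.6, 17.7 and 141 at D3, and did not pass (log2 fold change 0.77, SE 1.25, edgeR adjusted p = 0.545). The raw count of the first over that of the second, which needs no scaling, was 5.44, 7 and 7.94 in the D1 lanes and 1.14, 1.61 and 0.600 in the D3 lanes, without overlap. In D1 replicate 2 the second probe had 3 raw counts, under background, and in D3 replicate 1 both probes were under it, with 8 and 7, so those ratios rest on background-level counts. The third probe, comp288706, was below background in all 6 lanes.

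Piwi proteins silence transposons in the germ line, and their RNA is often supplied by the mother. Piwi-1 had 58.7, 36.3 and 32.1 scaled counts at D1, against 6.24, 6.32 and 11.3 at D3, below background in every D3 lane and, in raw counts, also in D1 replicate 2. Its D1 mean was at least 2.53-fold above the mean D3 background of 16.8 (log2 fold change −2.39, SE 0.88, edgeR adjusted p = 0.0209). Piwi-2 had 49.1, 74.7 and 47.0 at D1 and 16.6, 5.06 and 19.1 at D3, again with no D3 lane above background. Its D1 mean was at least 3.40-fold higher (log2 fold change −2.07, SE 0.89, edgeR adjusted p = 0.0371). Neither probe overlapped between the ages, and both were already lower at D2, with means of 12.6 and 17.8 against 42.4 and 57.0 at D1.

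All 3 falls kept their direction under every setting, but none kept its call in every one. With only the 12 lanes of the first run in the fit, edgeR called 0 falls (0 at an unadjusted p under 0.05), while on all 18 lanes limma called 2 and DESeq2 3. The edgeR adjusted p values in that fit were 0.0887 for Piwi-1 and comp292635_9 and 0.1286 for Piwi-2. Over all settings they ranged from 6.94e-07 to 0.169, from 2.175e-06 to 0.1295 and from 6.94e-07 to 0.2045 in that order. Leaving out any 1 of the 6 lanes ended the call of Piwi-2 (edgeR adjusted p = 0.05097 to 0.1145). The call of comp292635_9 was lost when D1 replicate 1, D1 replicate 3, D3 replicate 1 or D3 replicate 2 was left out (edgeR adjusted p = 0.06568 to 0.1295). That of Piwi-1 was lost without D1 replicate 1 (edgeR adjusted p = 0.06405).

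**Figure D3:**
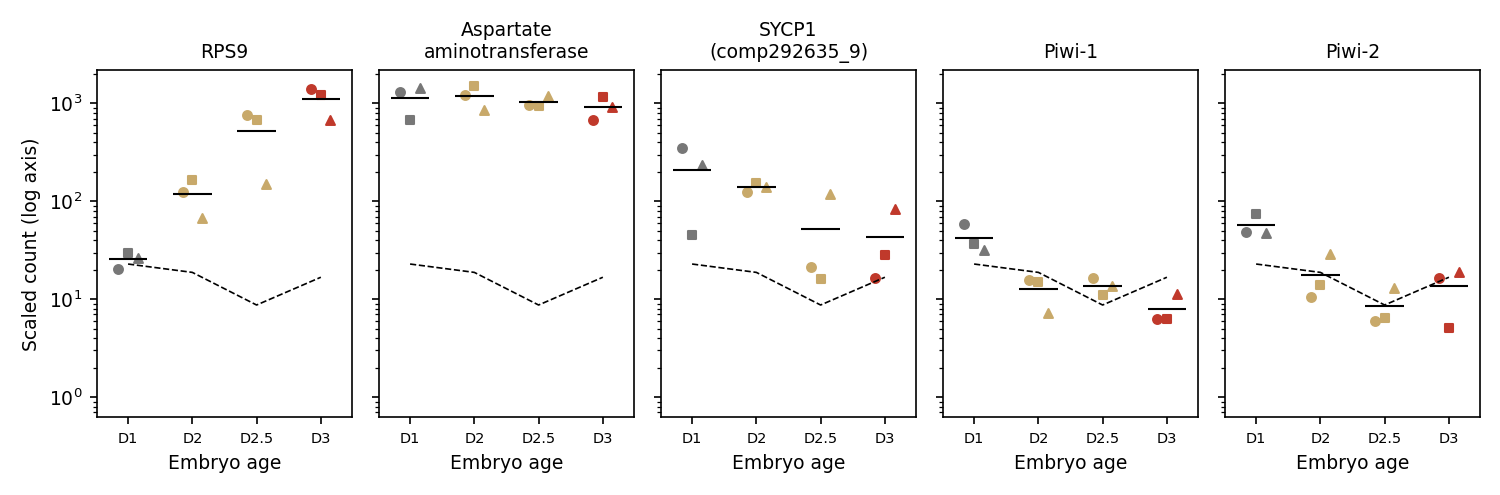
Scaled counts (log axis) of RPS9, aspartate aminotransferase, the SYCP1 probe comp292635_9, Piwi-1 and Piwi-2 at D1, D2, D2.5 and D3. Points are lanes (circle, square and triangle for replicates 1, 2 and 3), bars are means of 3 and the dashed line is the mean background of each age. RPS9 climbs from 20.4 to 29.9 at D1 to 675 to 1391 at D3, and both Piwi probes drop to background.

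RPS9, which belongs to the ribosome's small subunit, had the lowest p of the tested transcripts. Its scaled counts were 20.4, 29.9 and 26.4 at D1 and 1391, 1232 and 675 at D3, with every D3 lane far above D1. The mean rose 43.0-fold, from 25.5 ± 4.81 to 1099.7 ± 376 (SD, n = 3), with a log2 fold change of 5.42 (SE 0.63, edgeR adjusted p = 9.72e-07). The D1 mean lay close to the mean D1 background of 22.9, and D1 replicate 2, with 14 raw counts, was under its background of 17.9. The size of the fold therefore rests on D1 counts near background. With TMM and DESeq2 size factors the log2 fold change was 2.52 and 2.21 and did not pass (edgeR adjusted p = 0.1117 and 0.1615, from 5.692e-27 to 0.1615 over all settings and tools). Relative to EF1A_A alone, the raw RPS9 count was 0.0430, 0.0773 and 0.0519 at D1 and 3.72, 2.26 and 1.03 at D3 (exact permutation test, two-sided, n = 3 each, p = 0.1, the smallest that 3 against 3 lanes can give). Among the D3 lanes, replicate 3 was the lowest in RPS9 and the highest in the target panel. D2.5 replicate 3 had the same combination, with 152 scaled counts of RPS9 against 758 and 676, and a panel level of 6.62 against 4.12 and 3.48. What sets these lanes apart was not tested.

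The scaling probes themselves, elongation factor EF1A_A and the transcriptional coregulator HCFC-1, gave ratios that overlapped between the ages. The ratio of HCFC-1 to EF1A_A counts was 0.122, 0.182 and 0.105 at D1 and 0.194, 0.0915 and 0.0637 at D3 (exact permutation test of the log2 ratio, two-sided, n = 3 each, p = 0.5). With so few lanes that test has little power, and its smallest p is 0.1. A change with age that both probes share cannot be seen in their ratio. The other elongation factor probe, EF1A_B, was below background in every embryo lane.

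Among the probes without annotation, comp292169 was the one already above background in every D1 lane. It had 47.9, 55.5 and 33.8 scaled counts at D1, against 202, 112 and 1264 at D3. The mean rose 11.5-fold (log2 fold change 3.52, SE 1.44, edgeR adjusted p = 0.033), but the call ended without D1 replicate 1, 2 or 3 or D3 replicate 3, and the log2 fold change was −0.78 and −1.14 with TMM and DESeq2 size factors. The probes comp279056 and comp289786 did not pass (log2 fold changes 1.97 and 1.35, edgeR adjusted p = 0.0687 and 0.261). comp293605 passed (2.84, SE 1.05, edgeR adjusted p = 0.021), although its D3 mean of 21.9 lay under the D1 background of 22.9, so no fold is given, and the call was lost without D1 replicate 1, D1 replicate 3 or D3 replicate 3. The other 13 tested probes without annotation all rose, against 73.2% of all tested transcripts, and 8 of the 13 lost the call without D3 replicate 3. They had log2 fold changes from 3.63 to 6.51, D3 means from 39.0 to 130.1 scaled counts and D3 lanes above D1 lanes in each. Of them, comp252428, comp274039, comp290885, comp293325_41, comp30676 and comp3124724 were above background in only 2 of 3 D3 lanes. In comp30676 the D3 lanes had 6.24, 7.58 and 108 scaled counts.

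The order of the stage means between D1 and D3 rested on replicate 3 of D2.5 and of D3. With every lane, the mean increased at each step from D1 through D2 and D2.5 to D3 for 28 of the 29 target probes that rose, a set chosen for D3 above D1. This number was 7 without D2.5 replicate 3, 8 without D3 replicate 3 and 7 without both, settings chosen after seeing the data. The D3 mean was the highest of the 6 embryo stages for all 29 with every lane and for 0 of 29 without D3 replicate 3, with D4 and D5 read in another run.

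The order of the target probes at D3 resembled that of adult testes. Over the 38 tested target probes, Pearson's r of the log2 raw counts with the mean of the 3 testes lanes was 0.58, 0.42 and 0.75 in D3 replicates 1, 2 and 3, and −0.22, −0.30 and −0.33 in the D1 lanes. The probes share a lane and its background, and most D1 counts lay at that background. In D3 replicate 3 the raw count of a probe was a median of 3.10% of its testes count, with quartiles of 2.39% and 4.17%. In D3 replicates 1 and 2 the medians were 0.270% and 0.629%. Aspartate aminotransferase and comp292635_9 departed from this, at 98.3% and 40.5% of testes in replicate 3. Testes were read in another run, and what the resemblance rests on was not tested.

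**Figure D4:**
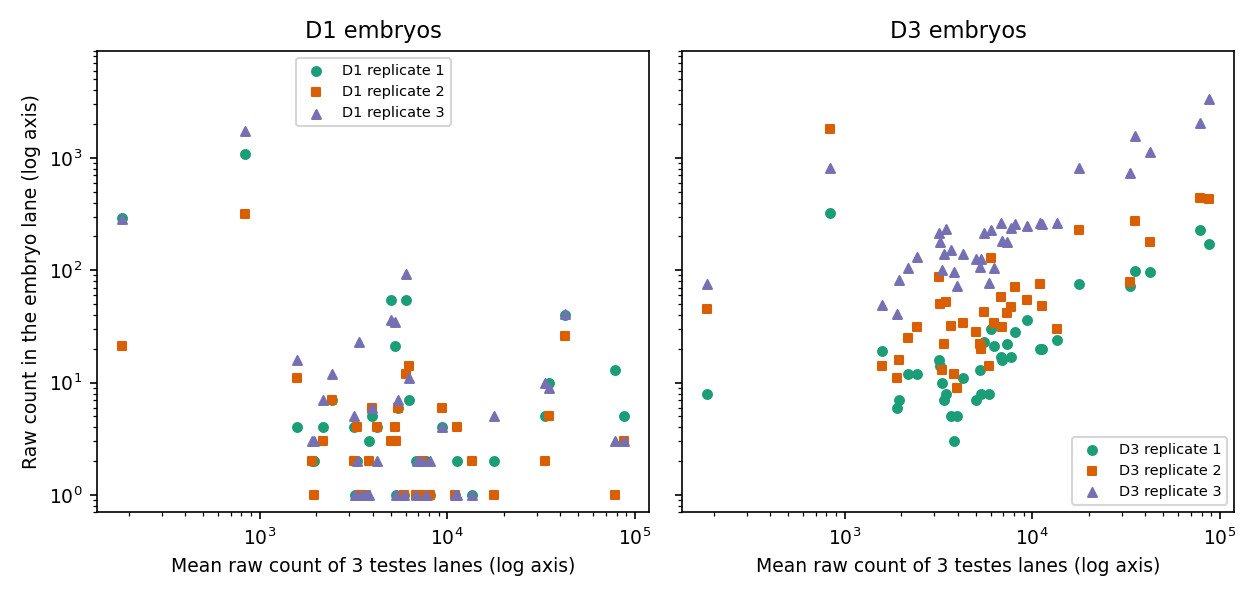
Raw counts of the 38 tested target probes in each D1 lane (left) and D3 lane (right) against the mean of 3 testes lanes, both axes logarithmic. Each point is 1 probe in 1 lane. In D3 replicate 3 the points follow the testes counts at a median of 3.10%, whereas D1 shows no such band.

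The number of calls depended on how lanes were scaled. Scalings from reference probes or positive controls gave 29 or 30 rises and at most 3 falls. The sum of the target probes gave 21 rises and 4 falls, TMM 11 and 11, and DESeq2's size factors 9 and 15, with the median log2 fold change at 2.07, 0.34 and 0.0093. These last 3 tie a lane to the target probes, so they show which transcripts changed more or less than the panel and not whether the panel as a whole rose.

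**Figure D5:**
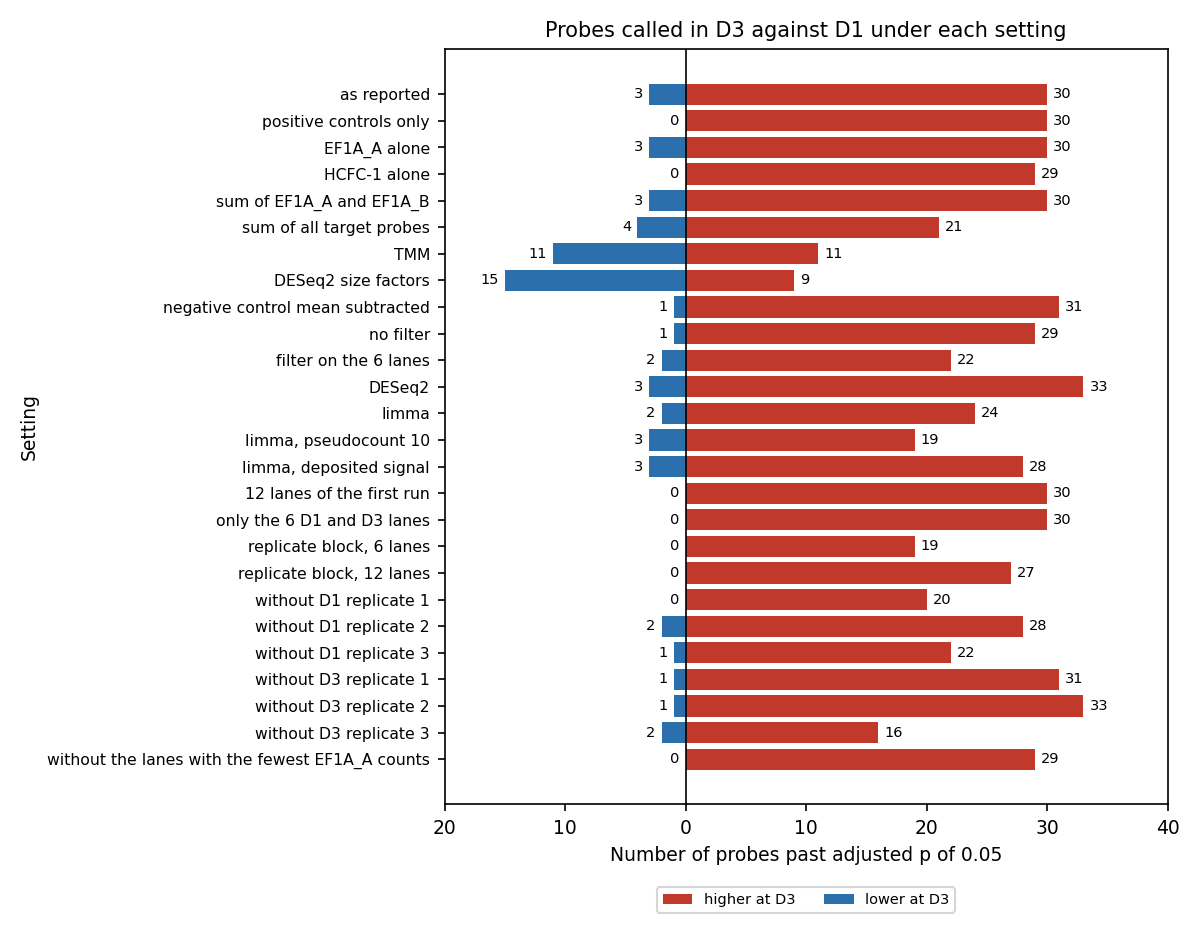
Number of transcripts past an adjusted p of 0.05, higher at D3 (right, red) and lower at D3 (left, blue), under the reported setting and 25 alternatives. Rises range from 9 with DESeq2's size factors to 33 with the DESeq2 test or without D3 replicate 2.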

How the data were processed

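The raw counts were used as the authors deposited them, whole numbers per probe and lane, per the file headers. The authors also deposited normalized signal values, whose scaling is not given in the sources used here and which entered as an alternative only. Groups came from the sample titles, and lanes were matched by the age and number in their names. 4 lanes of D4 and D5 whose names give no replicate number entered the fit by age. The 41 transcripts tested exceeded background in 3 or more of 18 embryo lanes, less the 2 scaling probes. Lane factors were the geometric mean of EF1A_A and HCFC-1 with a mean of 1, and the positive controls cancel in them. edgeR 4.0.16 (robust quasi-likelihood, R 4.3.3) was fitted on the 18 embryo lanes with age as the factor, and Benjamini-Hochberg adjustment ran over the 41. The SE is the log2 fold change over the square root of F. limma 3.58.1 on log2(scaled count + 1) and DESeq2 1.42.0 were alternatives. The script for the edgeR test was checked on simulated data with known changes. The simulated probes varied independently, with no shift shared by a lane beyond its factor, so the pattern of D3 replicate 3 was not covered. Each probe's simulated D1 level was its mean over the 18 embryo lanes. Rises from D1 levels as low as those of most risers were therefore not covered either. A transcript below background in every lane of an age entered a fold at the mean background of that age, as a lower bound. Described by name were the annotated and reference probes and, of those without annotation, the ones above background in every D1 lane, the 5 with the highest D3 mean, and the 3 with the largest and the 3 with the smallest log2 fold change. The remaining probes named were singled out after their values were seen. Lists followed the annotation, except that the MAD2L1-binding protein was placed with meiosis though annotated with cell proliferation. Cordon-bleu was placed with the cytoskeleton though annotated as an apoptosis inhibitor. Hydroxylysine kinase, protein phosphatase 1D and the trinucleotide repeat gene were placed in theirs after the annotation was read. For hydroxylysine kinase this departed from the list rule, under which names with kinase belong to chromatin and proliferation. Probes that fell in none are called other annotation. The members, lists and tests were chosen with earlier results of these data known. Depth limits precision, and counting error is largest in D1 replicate 2.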

Additional observations from a re-analysis of the deposited data

How the results depend on the processing

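Over 28 named transcripts and up to 25 alternative settings, 543 of 695 values kept their direction and side of the threshold, 102 lost a call, 18 gained one and 32 changed direction. Rises numbered 30 as reported, and 11 with TMM, 9 with DESeq2 size factors, 19 with limma at a pseudocount of 10 and 16 to 33 with 1 lane left out. Falls numbered 3 as reported, 11 with TMM, 15 with DESeq2 size factors, and 1 with no filter or after subtracting the negative controls' mean. edgeR called 0 falls with positive controls only, with HCFC-1 alone, with the 12 lanes of the first run and without D1 replicate 2 and D3 replicate 1, the last chosen after seeing the data (0, 0, 0 and 1 at an unadjusted p under 0.05). With only the 6 D1 and D3 lanes it also called 0 falls (1 unadjusted), and with 1 lane left out 0 to 2. DESeq2 called 3 falls and limma 2. The median log2 fold change of 4.26 became 2.07 with the sum of the target probes, 0.34 with TMM, 0.0093 with DESeq2 size factors, 2.08 with limma at a pseudocount of 10, 8.21 after subtracting the negative controls' mean and 2.52 to 4.72 with 1 lane left out. The panel difference of 3.28 became 1.73 with the sum of the target probes, 0.095 with TMM, −0.23 with DESeq2 size factors, 4.57 after that subtraction and 2.37 to 3.82 with 1 lane left out. Target probes above background at D1 numbered 6 when 2 of 3 lanes sufficed. Fits with other lanes or another test give no panel difference of their own.

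For D1 and D3 lanes of the same replicate number, the correlations of their deviations from the age means were −0.29, −0.39 and −0.23 over 41 transcripts. No pairing was seen, but this check cannot exclude it. Most D1 counts lay near background, and a shift shared by all probes of a lane drops out of the correlation. The labels do not say whether a replicate number marks a shared batch. With the replicate number as a block, edgeR called 19 rises and 0 falls on the 6 lanes (0 falls at an unadjusted p under 0.05) and 27 rises and 0 falls on the 12 lanes of the first run (2 falls unadjusted).

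Directions changed mostly where the scaling came from the target probes themselves. With TMM and DESeq2 size factors, the log2 fold changes were −1.62 and −1.96 for comp267762, −1.71 and −2.04 for comp279056, −2.67 and −3.01 for comp280581, −2.36 and −2.72 for comp284391, and −0.56 and −0.90 for comp285297. They were −0.96 and −1.30 for comp287366, −2.25 and −2.61 for comp287546, −3.03 and −3.41 for comp289786, −0.78 and −1.14 for comp292169, −3.70 and −4.08 for comp292635, −1.83 and −2.21 for comp292779, and −1.19 and −1.53 for comp293605. With the sum of the target probes, they were −0.20 for comp279056, −0.63 for comp280581, −0.65 for comp284391, −0.46 for comp287546, −0.88 for comp289786 and −1.54 for comp292635. With 1 lane left out, comp289786 ranged from −0.065 to 1.81 and comp292635 from −1.06 to 1.64, negative without D3 replicate 3.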
